A study of Mus musculus with 12 samples.

Results

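The genes described here are 10 markers of brain endothelium and of the blood-brain barrier: Cldn5, Pecam1, Flt1, Kdr, Tek, Slc2a1, Abcb1a, Slco1a4, Ly6c1 and Esam. They were chosen by gene name from the 23329 genes counted in mouse hippocampus, and all 10 passed the filter on low counts that left 14131 genes for testing. Endothelial cells line the vessels of the brain, where tight junctions seal the gaps between them and dedicated transporters carry nutrients in and pump foreign compounds out. Pericytes and astrocyte endfeet surround them and help to maintain this barrier. Receptors for vascular endothelial growth factors (VEGF) and for angiopoietins on the same cells govern the growth and the stability of vessels.

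The series compared hippocampal RNA of adult mice that lack NONO (knockout, KO) with that of wild-type mice (WT). NONO is a nuclear protein that binds RNA and DNA and is known to interact with PERIOD proteins of the circadian clock. The 12 libraries form 4 groups of 3, KO CT22, KO CT10, WT CT22 and WT CT10, all of strain C57BL/6 and with no other treatment named. The labels do not spell out CT or describe the allele. They also do not say whether replicates were separate animals, so the p-values reflect the variation among these libraries, which could be technical.

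The labels were checked first. Nono stood at 0 to 0.672 CPM (counts made comparable between libraries of unequal totals by TMM) in the 6 KO libraries, against 150 to 169 CPM in the 6 WT libraries, and no library went against its genotype. Library totals ran from 4435606 to 10911046 counts, and the 10 genes had between 82 and 1330 counts in a library. By clock output genes a pair of KO libraries stood out of place. Dbp, a clock-driven transcription factor, had 90.9, 32.3 and 32.9 CPM in KO CT22 and 93.7, 106 and 33.6 CPM in KO CT10, against 43.2, 50.5 and 59.6 CPM in WT CT22 and 80.6, 70.5 and 95 CPM in WT CT10 (replicates 1 to 3 each time). The library labelled KO CT22 replicate 1 thus lay with the CT10 libraries and the library labelled KO CT10 replicate 3 with the CT22 libraries, and Nr1d1, Nr1d2 and Per3 placed them in the same way. The values of Cldn5, Slc2a1, Kdr, Esam and Ly6c1 that rest on these libraries are also given without them, and the counts over gene lists and over non-overlapping groups use all 12 libraries unless stated. The libraries also held unequal amounts of neighbouring tissue. The summed level of 16 choroid plexus markers was 117 to 3950 CPM in KO and 143 to 1670 CPM in WT, and that of 15 meningeal fibroblast markers was 340 to 863 CPM in KO and 233 to 681 CPM in WT. None of these markers was at 0 in any library. Neuron markers summed to 10200 to 13400 CPM in KO and 10800 to 13500 CPM in WT.

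Compared per transcript length (TPM, the share of transcripts after dividing by length), the 10 genes spanned a wide range of levels. Ly6c1, which encodes a surface protein abundant on brain endothelium, was the highest at 119 ± 9.16 TPM (SD over 12 libraries), followed by Slc2a1, the glucose transporter GLUT1, at 114 ± 18.6 TPM. These did not differ beyond their spread, with Ly6c1 above Slc2a1 in 8 of 12 libraries. Cldn5, the main claudin of brain tight junctions, came next at 69.6 ± 21.4 TPM. Slco1a4, an organic anion transporter, stood at 34.6 ± 5.3 TPM. Esam, an adhesion molecule of endothelial junctions, stood at 25.3 ± 2.75 TPM. Each of these genes was above the one after it in at least 11 of 12 libraries. Flt1, the VEGF receptor that binds its ligand tightly but signals weakly, had 20.3 ± 4.22 TPM and the efflux pump gene Abcb1a (P-glycoprotein) had 19.9 ± 2.39 TPM, with Flt1 above in 6 of 12 libraries. Pecam1, an adhesion molecule found on all endothelium, followed at 17.6 ± 2.07 TPM. Tek, the angiopoietin receptor, at 9.42 ± 1.43 TPM and Kdr, the main signalling receptor for VEGF, at 9.03 ± 2.97 TPM could not be ordered, with Tek above in 6 of 12 libraries. The spread between libraries differed among the genes. The coefficient of variation of the TPM values was 32.9% for Kdr and 30.8% for Cldn5, and 7.71% for Ly6c1. Because whole tissue was sequenced, fewer endothelial cells and less RNA per cell cannot be told apart in any of these values, and Slc2a1 is also transcribed in astrocytes.

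**Figure D1:**
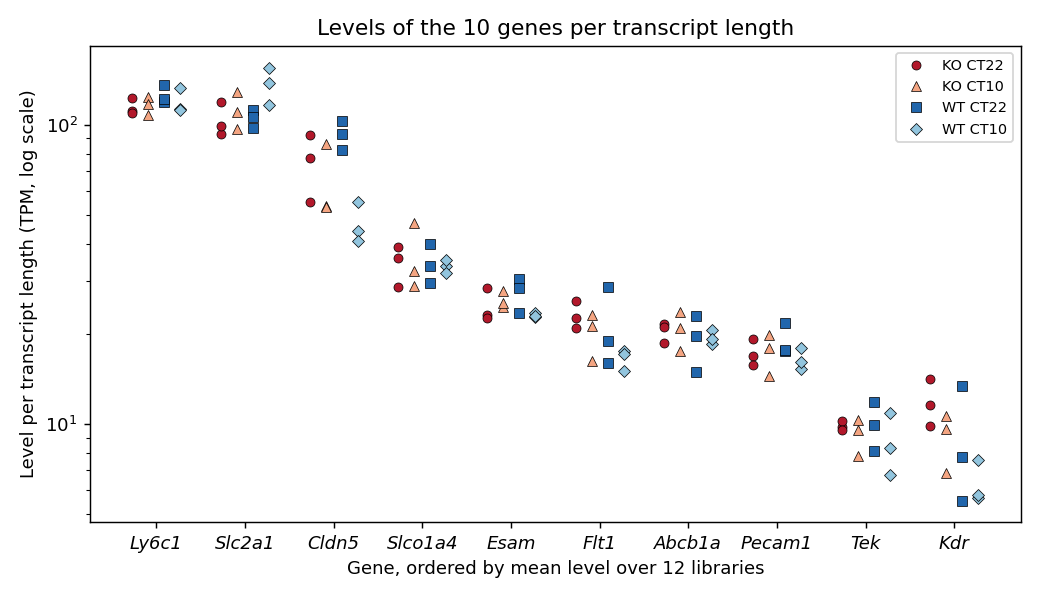
Level of each gene per transcript length (TPM, log scale) in the 12 libraries, with genes ordered by their mean and each point a library. Ly6c1 and Slc2a1 lie highest, at means of 119 and 114 TPM, and Tek and Kdr lowest, at means of 9.42 and 9.03 TPM. The points of Cldn5 and Kdr are spread most widely.

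The first comparison set KO against WT as the average of the effects at CT22 and CT10. None of the 10 genes changed by edgeR's quasi-likelihood test with Benjamini-Hochberg adjustment over 14131 genes. The test called 0.0212% of all genes in this comparison. Of the 10 genes, 5 stood higher in KO and 5 lower, with a median log2 change of 0.0069 beside 0.0051 over all genes tested. A single member, Kdr, had an unadjusted p under 0.05, where 897 of all genes did, and DESeq2 called no member either, while it called 0.149% of all genes. Without the 2 KO libraries out of place edgeR again called none, with 0.00703% of all genes called.

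With the CT labels pooled, the junction and adhesion genes had closely matched mean levels in both genotypes. Cldn5 stood at 37.3 ± 9.01 CPM in KO and 38.5 ± 14.7 CPM in WT (SD, n = 6 each). Its log2 change was 0.03, with a 95% interval from −0.28 to 0.35. For Cldn5 that average joined −0.39 at CT22 and 0.46 at CT10, neither called by edgeR. Esam (chromosome 9, 37528089 to 37538319, plus strand) averaged 18.1 ± 1.83 CPM in KO and 18.4 ± 2.2 CPM in WT, with an interval from −0.22 to 0.15. Pecam1 (chromosome 11, 106654218 to 106715281, minus strand) averaged 22.2 ± 2.34 CPM in KO and 23.3 ± 2.59 CPM in WT, with an interval from −0.25 to 0.13. The libraries of the genotypes overlapped for all 3 genes.

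Among the growth factor receptors, Kdr had the widest difference of the 10 genes and Flt1 moved with it from library to library. Kdr (chromosome 5, 75933270 to 75978428, minus strand) had 20.7, 24.4 and 29.6 CPM in KO CT22 and 22.6, 15.6 and 20.7 CPM in KO CT10, against 28.3, 17.3 and 12.8 CPM in WT CT22 and 12.5, 16.5 and 12.8 CPM in WT CT10. Apart from WT CT22 replicate 1, the WT libraries lay at or below 17.3 CPM, while 5 of the 6 KO libraries lay at or above 20.7 CPM. The log2 change was 0.43 (SE 0.18, 95% interval 0.03 to 0.82, edgeR adjusted p = 0.752) and became 0.47 with the 2 KO libraries out of place left out. In the authors' deposited table the log2 ratio of Kdr was 0.4 with an adjusted p of 0.805. Flt1 (chromosome 5, 147562196 to 147725988, minus strand) had 55.1, 50.9 and 62.5 CPM in KO CT22 and 57.1, 42.6 and 52.7 CPM in KO CT10, against 69.6, 48.7 and 42.7 CPM in WT CT22 and 38.6, 43.9 and 43.3 CPM in WT CT10. The library highest in WT was the same for both receptors, and the genotypes overlapped. The log2 change of Flt1 was 0.17 (SE 0.11, 95% interval −0.07 to 0.42, edgeR adjusted p = 0.824). Across the 12 libraries Flt1 and Kdr had a Pearson correlation of 0.93 and a Spearman correlation of 0.92, given as a description since libraries share depth and tissue content. Leaving out the 2 libraries farthest from the median left r at 0.91. Tek (chromosome 4, 94739300 to 94874939, plus strand) averaged 17.4 ± 1.26 CPM in KO and 17.4 ± 3.23 CPM in WT, with a 95% interval of the log2 change from −0.25 to 0.24.

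The levels of Kdr and Flt1 moved with the markers of meningeal fibroblasts. The 15 markers summed to 373, 567 and 863 CPM in KO CT22 and 560, 340 and 503 CPM in KO CT10, against 681, 325 and 331 CPM in WT CT22 and 233, 380 and 391 CPM in WT CT10. The library highest in both receptors among the WT libraries, WT CT22 replicate 1, was also the highest in these markers, and in KO the library labelled CT22 replicate 3 was the highest in Kdr, in Flt1 and in the markers. Of the 15 markers, 14 stood higher in KO and 1 lower, with a median log2 change of 0.61 and none called. Without the library of each group that was highest in choroid plexus markers, the log2 change between KO and WT was 0.15 for Kdr and 0.03 for Flt1. Those libraries were replicate 1 of KO CT10 and replicate 3 of KO CT22, WT CT22 and WT CT10. In KO they held 22.6 and 29.6 CPM of Kdr, the highest of their groups, and in WT 12.8 CPM each. WT CT22 replicate 1, with 201 CPM of choroid plexus markers, was kept in that fit. Without WT CT22 replicate 1 alone the log2 change between KO and WT was 0.61 for Kdr (edgeR adjusted p = 0.138) and 0.29 for Flt1. The adjusted p of Kdr lay between 0.138 and 1.0 over 20 alternatives. The part of meningeal and choroid plexus tissue in these differences was not tested.

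**Figure D2:**
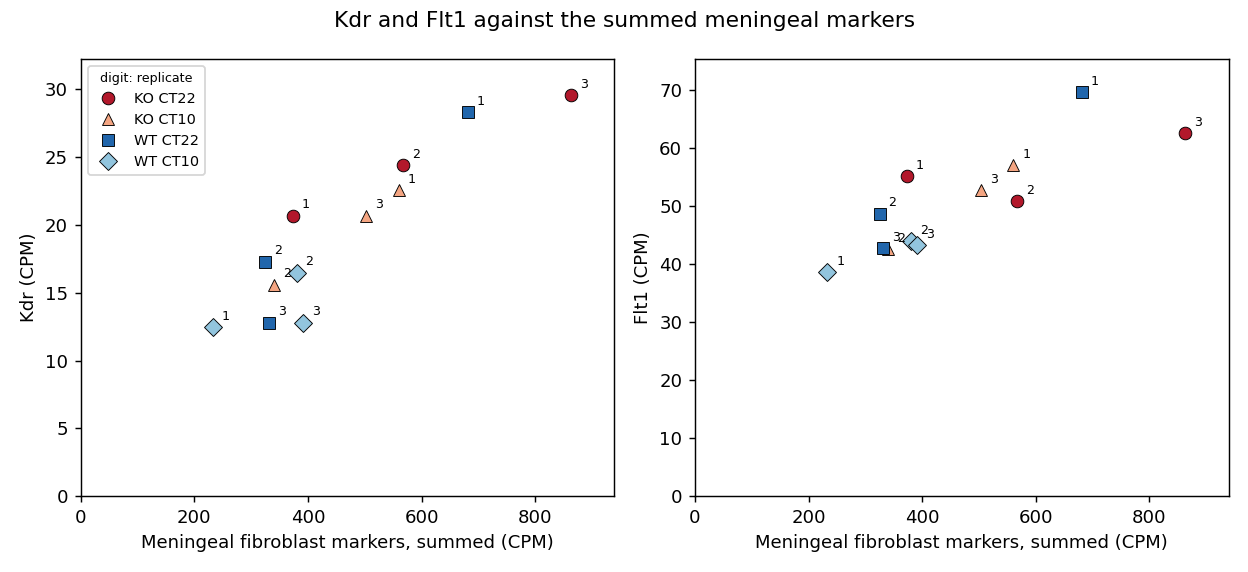
Normalised counts (CPM) of Kdr, left, and Flt1, right, against the summed CPM of 15 meningeal fibroblast markers, 1 point per library. The library at 863 CPM of markers, KO CT22 replicate 3, has 29.6 CPM of Kdr, and WT CT22 replicate 1, at 681 CPM of markers, has 28.3 CPM of Kdr and 69.6 CPM of Flt1.

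The start regions of both receptor genes are shown because the receptors varied together. The sequences are those of RefSeq on the build GRCm38.p6, from 250 bases before to 50 bases after the annotated start site, read 5′ to 3′ on the gene's own strand (minus for both). Capitals mark matches on either strand to 3 motifs: the ETS site GGAAGT, bound by a family of factors active in endothelium, the GC box GGGCGG and the TATA box TATAAA. Kdr covers chr5:75978406-75978705 and Flt1 covers chr5:147725962-147726261.
Kdr: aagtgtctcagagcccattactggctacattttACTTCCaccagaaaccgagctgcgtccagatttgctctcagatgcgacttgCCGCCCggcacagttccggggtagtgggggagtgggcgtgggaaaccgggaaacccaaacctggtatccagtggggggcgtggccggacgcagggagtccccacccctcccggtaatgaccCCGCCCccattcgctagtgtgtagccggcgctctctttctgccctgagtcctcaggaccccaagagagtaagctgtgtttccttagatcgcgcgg
Flt1: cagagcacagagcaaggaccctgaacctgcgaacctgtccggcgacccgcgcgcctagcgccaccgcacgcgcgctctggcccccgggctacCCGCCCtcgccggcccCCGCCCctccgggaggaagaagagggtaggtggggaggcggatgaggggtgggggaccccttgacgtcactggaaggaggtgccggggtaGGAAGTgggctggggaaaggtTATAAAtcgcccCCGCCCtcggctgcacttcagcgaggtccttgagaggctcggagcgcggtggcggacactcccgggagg
Both regions held an ETS match, with its first base at −217 in Kdr and at −52 in Flt1 relative to the start site, and both held GC boxes. Flt1 also held a TATA box at −31. Of 32851 promoters of this length, 23.8% held the ETS letters, 35.7% the GC box and 13.6% the TATA box. None of the matches overlapped another, and they describe the letters only.

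None of the transport genes was called between genotypes, nor was Ly6c1. Slc2a1 averaged 107 ± 14.3 CPM in KO and 124 ± 21.8 CPM in WT (SD, n = 6 each), with a log2 change of −0.19 (SE 0.092, 95% interval −0.39 to 0.0043, edgeR adjusted p = 0.773). Without the 2 KO libraries out of place its log2 change was −0.20, and its adjusted p lay between 0.376 and 1.0 over 20 alternatives. Abcb1a (chromosome 5, 8660092 to 8748570, plus strand) ran from 35.9 through a median of 40.9 to 45.8 CPM in KO, and from 31.5 through 39.3 to 44.1 CPM in WT. Slco1a4 (chromosome 6, 141805440 to 141856171, minus strand) ran from 42.4 through 51.9 to 69.9 CPM in KO, and from 47.7 through 52.4 to 58.6 CPM in WT. The genotypes overlapped for both genes, and the 95% intervals of the log2 change were −0.13 to 0.25 for Abcb1a and −0.21 to 0.25 for Slco1a4. Ly6c1 (chromosome 15, 75044018 to 75048837, minus strand) ran from 32.7 through 36.1 to 38.9 CPM in KO, and from 35.5 through 38.8 to 44.3 CPM in WT, with a log2 change of −0.12 (95% interval −0.28 to 0.042, edgeR adjusted p = 0.817).

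**Figure D3:**
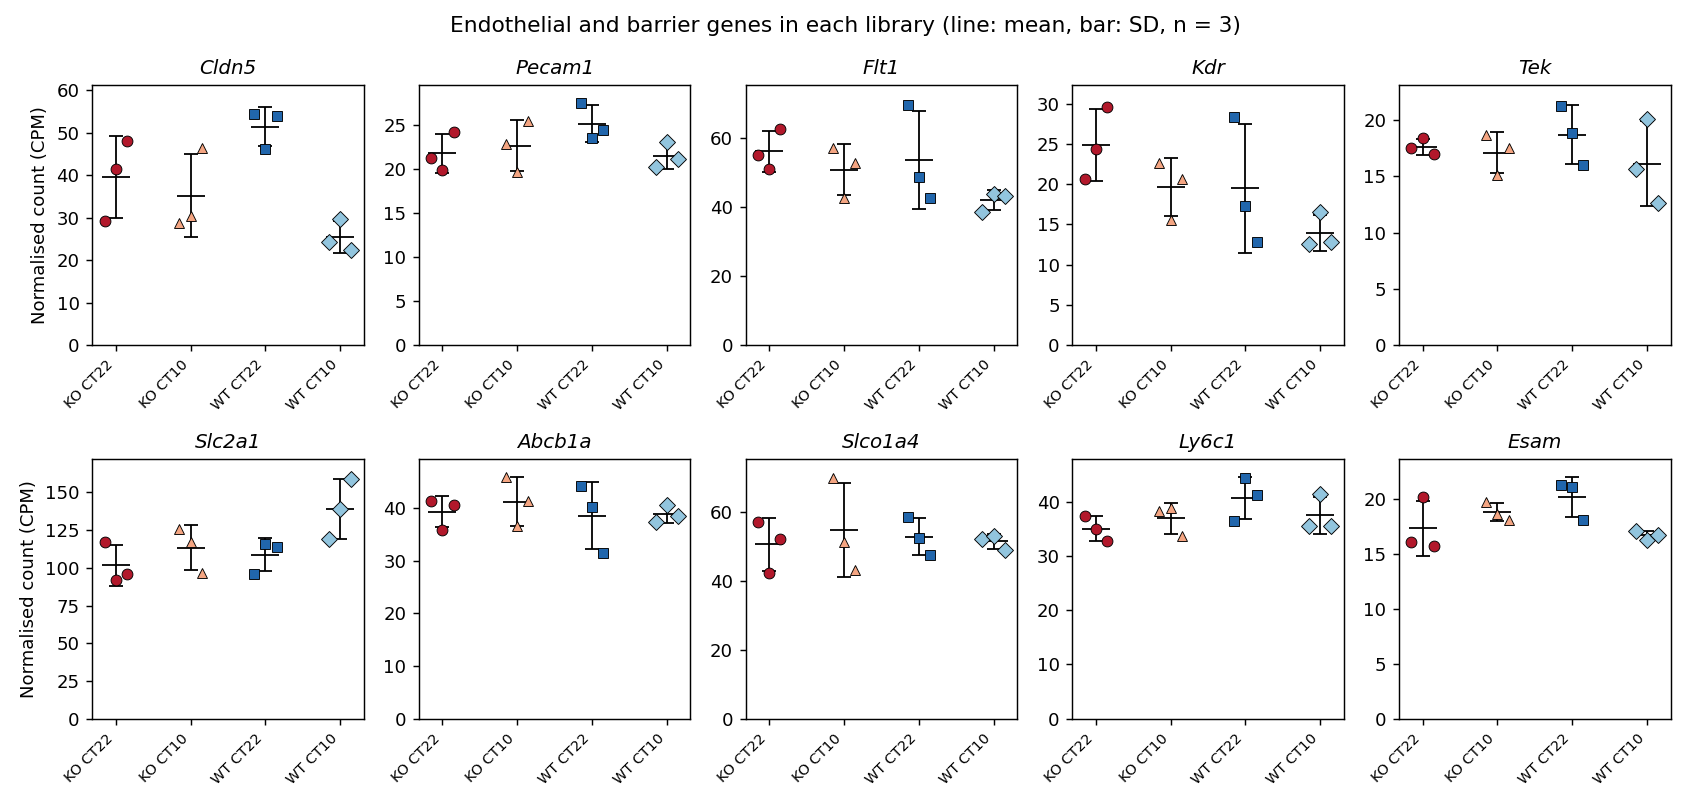
Normalised counts (CPM) of the 10 genes in each library, by group, with points for libraries, a line for the mean and a bar for the SD (n = 3). For Cldn5 the 3 WT CT22 libraries lie at 46.1 to 54.4 CPM and the 3 WT CT10 libraries at 22.5 to 29.8 CPM, and both KO groups hold libraries near each of these levels.

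The second comparison set CT22 against CT10 within each genotype. In WT, Cldn5 (chromosome 16, 18776847 to 18778262, plus strand) showed the largest difference of the 10 genes. It had 54.4, 46.1 and 53.9 CPM in WT CT22, against 24.3, 29.8 and 22.5 CPM in WT CT10, so that every CT22 library lay above every CT10 library. The fold was 2.01 (log2 change 1.01, SE 0.20, 95% interval 0.56 to 1.45). Adjusted over all 14131 genes the p was 0.701 in the test fitted to all 12 libraries, which called no gene at all (0.0%) in this comparison while 955 genes, 4 members among them, had an unadjusted p under 0.05. DESeq2 called Cldn5 (adjusted p = 0.00833), as 1 of 4 genes among 18291 (0.0219%). Cldn5 was also called by edgeR in the fit to the WT libraries alone (adjusted p = 0.0343, 1 of 2 genes called, 0.0144%) and in the fit without the 2 KO libraries out of place (adjusted p = 0.0118, the only gene called, 0.00703%), with the same log2 change of 1.01 each time. The adjusted p over 20 alternatives lay between 0.00833 and 0.993, and the log2 change stayed between 0.93 and 1.14 when any 1 library was left out.

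Slc2a1 (chromosome 4, 119108745 to 119137329, plus strand) stood the other way. It had 96.0, 116 and 114 CPM in WT CT22, against 119, 139 and 159 CPM in WT CT10, with every CT22 library below every CT10 library. The log2 change was −0.35 (SE 0.13, 95% interval −0.63 to −0.08, edgeR adjusted p = 0.722). The other adhesion genes stood on the side of Cldn5 with smaller differences. Esam had 21.3, 21.1 and 18.1 CPM in WT CT22, against 17.1, 16.3 and 16.7 CPM in WT CT10 (log2 change 0.27, SE 0.12, edgeR adjusted p = 0.722). Pecam1 had 27.5, 23.5 and 24.5 CPM in WT CT22, against 20.2, 23.1 and 21.2 CPM in WT CT10 (log2 change 0.23, SE 0.12, edgeR adjusted p = 0.729). The groups overlapped for neither of these genes. Altogether 4 of the 10 genes did not overlap between these groups, where 16.2% of all genes did not, and 8 stood higher and 2 lower at CT22, with a median log2 change of 0.21 beside −0.0001 over all genes. Flt1 and Kdr had log2 changes of 0.35 and 0.48, which without WT CT22 replicate 1 were 0.13 and 0.11. Tek, Ly6c1, Slco1a4 and Abcb1a had log2 changes of 0.20, 0.11, 0.038 and −0.011, and their groups overlapped.

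In KO the labelled groups were less clearly separated, and the libraries out of place by clock genes were out of place for Cldn5 as well. Cldn5 had 29.2, 41.5 and 48.1 CPM in KO CT22, against 28.7, 30.3 and 46.4 CPM in KO CT10. The 29.2 CPM belong to the library labelled KO CT22 replicate 1 and the 46.4 CPM to the library labelled KO CT10 replicate 3. With all libraries the log2 change was 0.16 (SE 0.21, 95% interval −0.28 to 0.61, edgeR adjusted p = 0.977). Without those 2 libraries it was 0.61 (edgeR adjusted p = 0.481, between 0.481 and 1.0 over 20 alternatives), with 41.5 and 48.1 CPM in KO CT22 against 28.7 and 30.3 CPM in KO CT10. For Slc2a1 the library labelled KO CT22 replicate 1 had 117 CPM, beside 91.7 and 96.2 CPM in the others of KO CT22, and the library labelled KO CT10 replicate 3 had 96.7 CPM, beside 126 and 117 CPM in the others of KO CT10. The log2 change of Slc2a1 between CT22 and CT10 in KO was −0.15 with all libraries (edgeR adjusted p = 0.977) and −0.37 without the 2 (adjusted p = 0.628). Slco1a4 had a log2 change of −0.11 with all libraries and −0.35 without the 2. None of the 10 genes was called in KO, where edgeR called 0.0% of all genes and DESeq2 also called none, and none had an unadjusted p under 0.05 (447 of all genes did) or groups that did not overlap, against 7.96% of all genes without overlap. The median log2 change of the 10 genes was −0.06 in KO.

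**Figure D4:**
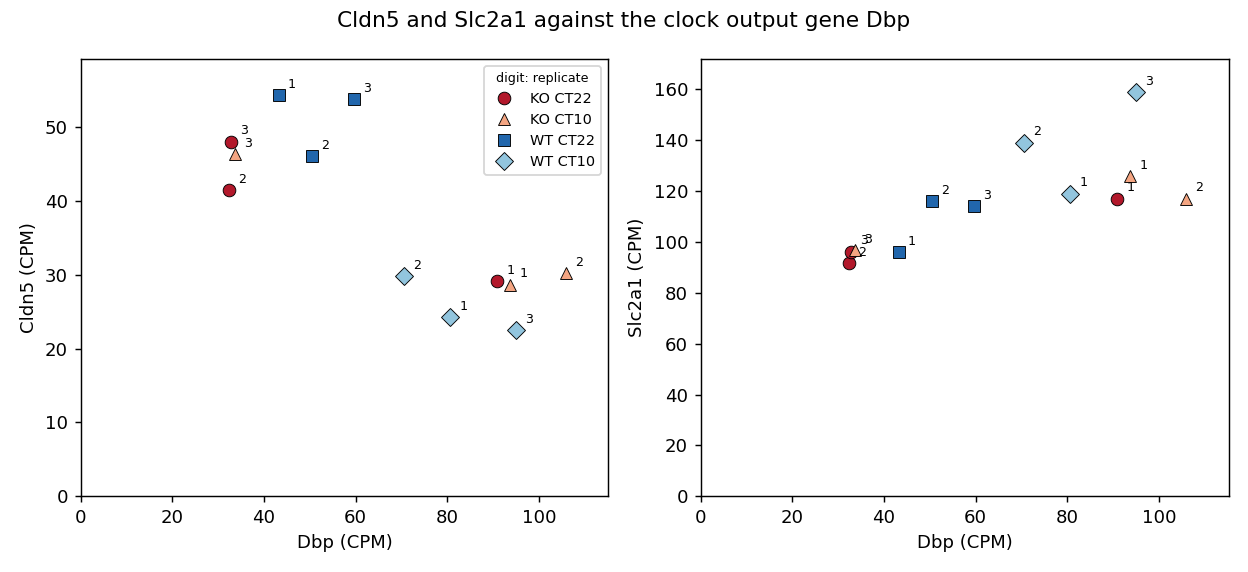
Normalised counts (CPM) of Cldn5, left, and Slc2a1, right, against those of the clock output gene Dbp, 1 point per library with its replicate number. The 3 WT CT22 libraries, at 43.2 to 59.6 CPM of Dbp, have 46.1 to 54.4 CPM of Cldn5, and the 3 WT CT10 libraries, at 70.5 to 95 CPM of Dbp, have 22.5 to 29.8 CPM. KO CT10 replicate 3 and KO CT22 replicate 1 fall among the libraries of the other CT label.

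No correlation with Dbp is given for either gene, because the libraries fell into separate clusters for Cldn5 and the levels of Slc2a1 overlapped between the CT labels. The library labelled KO CT10 replicate 3, with 33.6 CPM of Dbp, had 46.4 CPM of Cldn5 and 96.7 CPM of Slc2a1. The library labelled KO CT22 replicate 1, with 90.9 CPM of Dbp, had 29.2 CPM of Cldn5 and 117 CPM of Slc2a1. For all 3 genes these libraries lay nearer to the WT libraries of the other CT label than to those of their own, except that 117 CPM of Slc2a1 lay close to both.

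The start regions of Cldn5 and Slc2a1 are shown because these genes stood apart by CT label in WT, in opposite directions. They come from the same RefSeq table (GRCm38.p6, plus strand for both), with the same motifs in capitals. Cldn5 covers chr16:18776597-18776896 and Slc2a1 covers chr4:119108495-119108794.
Cldn5: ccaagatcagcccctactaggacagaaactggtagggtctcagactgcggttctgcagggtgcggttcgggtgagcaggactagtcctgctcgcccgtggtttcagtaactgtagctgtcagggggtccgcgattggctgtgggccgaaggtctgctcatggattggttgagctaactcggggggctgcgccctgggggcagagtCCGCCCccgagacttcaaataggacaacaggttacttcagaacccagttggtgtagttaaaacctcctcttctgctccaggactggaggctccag
Slc2a1: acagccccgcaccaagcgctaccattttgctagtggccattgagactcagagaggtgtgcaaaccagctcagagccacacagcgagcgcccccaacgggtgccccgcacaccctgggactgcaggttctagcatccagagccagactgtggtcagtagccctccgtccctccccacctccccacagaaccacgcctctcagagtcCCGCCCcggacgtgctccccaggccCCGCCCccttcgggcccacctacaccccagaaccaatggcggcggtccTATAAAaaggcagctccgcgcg
Cldn5 held a GC box at −45, and Slc2a1 held GC boxes at −45 and −20 and a TATA box at 28. Neither held the E-box CACGTG bound by CLOCK and BMAL1 (7.15% of all promoters), the D-box TTATGTAA bound by DBP (0.938%) or the half-site AGGTCA bound by REV-ERB and ROR receptors (16.3%), each searched on both strands. That says only that these letters were not in these windows. Of the 9 promoters listed for 8 members, that of Abcb1a starts far upstream of the transcript counted here, at base 8566841 of chromosome 5. Of these 9 a single one, of Ly6c1, held the half-site, and none held an E-box or D-box with these letters.

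The KO effect was also taken at each CT label, in comparisons that share libraries with those above. At CT10 none of the 10 genes was called by edgeR or DESeq2, where edgeR called 0.00708% of all genes and DESeq2 0.0164%, and 8 stood higher and 2 lower in KO (median log2 change 0.09, beside 0.0045 over all genes). Of the 10 genes, 2 had an unadjusted p under 0.05, Cldn5 and Slc2a1, where 436 of all genes did. Cldn5 averaged 35.1 ± 9.79 CPM in KO CT10 and 25.5 ± 3.81 CPM in WT CT10 (SD, n = 3 each), a log2 change of 0.46 (edgeR adjusted p = 1.0) that was 0.20 without the 2 KO libraries out of place. Slc2a1 averaged 113 ± 15.1 CPM in KO CT10 and 139 ± 19.7 CPM in WT CT10, a log2 change of −0.29 (edgeR adjusted p = 1.0) that was −0.19 without them. Esam was the gene whose libraries did not overlap, with 19.7, 18.6 and 18.1 CPM in KO CT10 against 17.1, 16.3 and 16.7 CPM in WT CT10. Its log2 change was 0.17, or 0.19 with the 2 KO libraries out of place left out (edgeR adjusted p = 1.0 both times). Of all genes, 10.3% did not overlap here.

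At CT22 none of the 10 genes was called by edgeR or DESeq2, where edgeR called 0.0142% of all genes and DESeq2 0.371%, and 3 stood higher and 7 lower in KO (median log2 change −0.09, beside 0.0036 over all genes). No member had an unadjusted p under 0.05, where 1543 of all genes did, and all groups overlapped, against 13.7% of all genes without overlap. Cldn5 averaged 39.6 ± 9.6 CPM in KO CT22 and 51.5 ± 4.66 CPM in WT CT22 (SD, n = 3 each), a log2 change of −0.39 (edgeR adjusted p = 0.491) that was −0.20 without the 2 libraries. Ly6c1 had 37.3, 35.0 and 32.7 CPM in KO CT22, against 36.5, 44.3 and 41.2 CPM in WT CT22. The highest KO library lay just above the lowest WT library, and the log2 change was −0.22 (edgeR adjusted p = 0.479). The KO library above was the one labelled KO CT22 replicate 1, and without the 2 libraries the log2 change was −0.28 (edgeR adjusted p = 0.577). Kdr had a log2 change of 0.35, which was 0.72 without WT CT22 replicate 1. Without the libraries richest in choroid plexus markers the log2 change of Kdr was −0.035. At CT22 those were replicate 3 of each genotype, with 29.6 CPM of Kdr, the highest of KO CT22, and 12.8 CPM, the lowest of WT CT22.

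The difference between the KO effects at CT22 and CT10 was tested as an interaction, and no member or other gene was called (0.0%), while 861 genes had an unadjusted p under 0.05. Cldn5 had a difference of −0.85 on the log2 scale (SE 0.29, 95% interval −1.47 to −0.22, edgeR adjusted p = 0.737). Without the 2 KO libraries out of place it was −0.40. Esam had a difference of −0.40 (edgeR adjusted p = 0.737), and −0.39 without the 2 libraries. The other 8 genes had intervals that included 0.

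**Figure D5:**
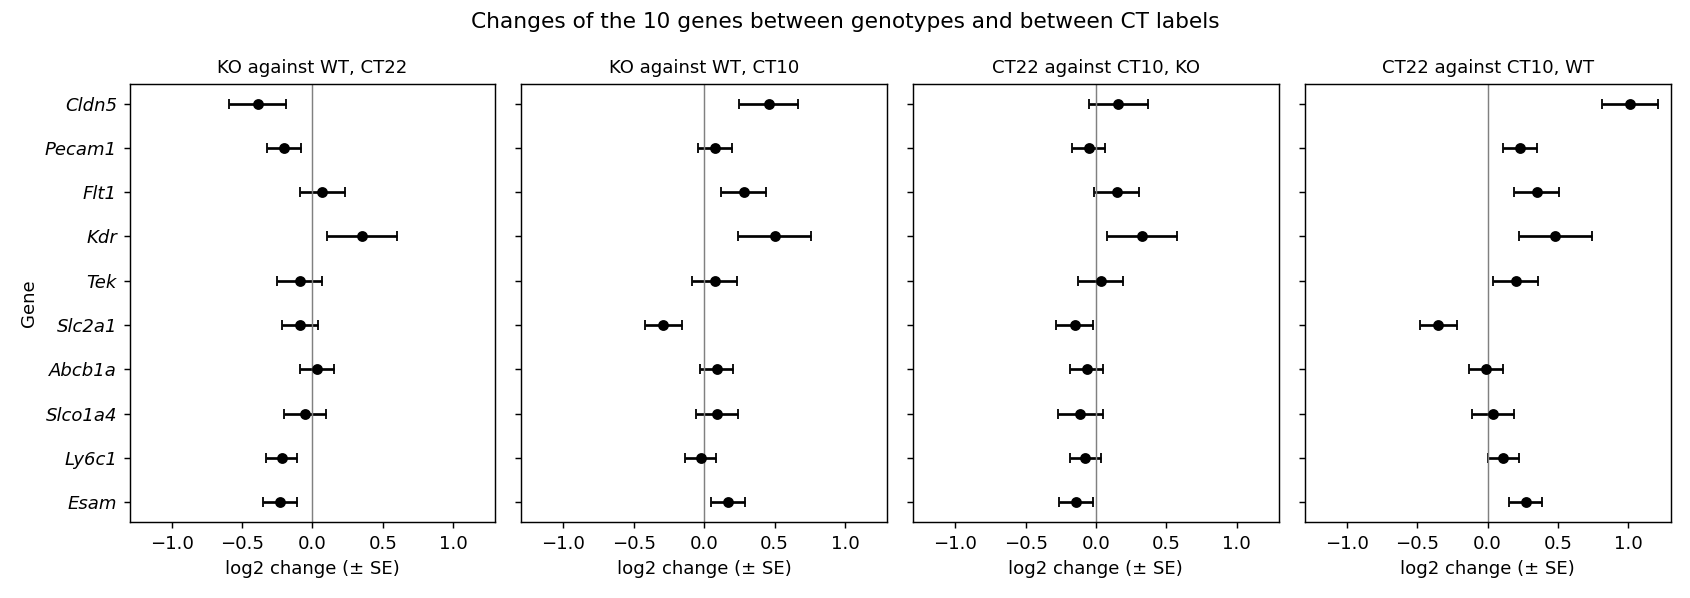
Log2 change of each of the 10 genes, with its standard error as a bar, for KO against WT at CT22 and at CT10 and for CT22 against CT10 in KO and in WT. The change of Cldn5 in WT, at 1.01, is the largest in the plot. None of the changes shown was called by edgeR's quasi-likelihood test on all 12 libraries.

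The same pathways were then read from longer lists of names, which hold all 10 members among them: 3 of 16 junction genes, 3 of 20 VEGF, angiopoietin and Notch genes, 3 of 22 transporters and 1 of 29 identity genes. No gene of any list was called between KO and WT averaged over CT labels, and the counts of higher and lower members are given beside the all-gene median of 0.0051. Of 16 endothelial junction genes, 10 stood higher and 6 lower (median log2 change 0.042), and with the members left out 9 stood higher and 4 lower (median 0.048). The adhesion gene Jam2 had the lowest p of that list, at 46.8 ± 5.46 CPM in KO and 52.8 ± 5.92 CPM in WT (SD, n = 6 each), with a log2 change of −0.16 (edgeR adjusted p = 0.801), while the tight junction genes Ocln and Tjp1 had log2 changes of −0.023 and 0.037. Of 20 ligands and receptors of the VEGF, angiopoietin and Notch pathways, 15 stood higher and 5 lower (median 0.11), and with the members left out 13 and 4 (median 0.10). Flt4, the VEGF receptor best known from lymphatic endothelium, had the lowest p there, at 5.13 ± 0.747 CPM in KO and 3.8 ± 0.522 CPM in WT (log2 change 0.44, edgeR adjusted p = 0.653). The KO libraries held 4.26 to 6.41 CPM of Flt4 and the WT libraries 3.29 to 4.69 CPM, so the genotypes overlapped when the CT labels were pooled. Within a label every KO library lay above every WT library, by the narrowest margin at CT10, where the nearest libraries both came to 4.69 CPM. Of all genes, 13.7% did not overlap at CT22 and 10.3% at CT10, in either direction. The share without overlap at both labels is not given, and Flt4 was named for its low p. The TGF-beta co-receptor Eng averaged 36 ± 2.54 CPM in KO and 29.8 ± 6.45 CPM in WT (log2 change 0.28, edgeR adjusted p = 0.705). Vegfa, the main ligand of Kdr, had a log2 change of −0.0026, and Angpt1, the agonist of Tek, one of 0.081. For Angpt1 that average joined 0.50 at CT22 and −0.34 at CT10, whose difference was not called (edgeR adjusted p = 0.737).

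Barrier transporters and receptors were balanced, with 12 of 22 higher and 10 lower (median 0.0071), or 10 and 9 with the members left out (median 0.0041). Abcg2, another efflux pump, and Slc7a5, a carrier of large neutral amino acids, each had a log2 change of −0.11, and Slco1c1, a thyroid hormone transporter, one of 0.086. Mfsd2a, a lipid transporter that restrains vesicle traffic in barrier endothelium, had a log2 change of −0.084. Among 24 genes of barrier-inducing Wnt signalling and endothelial transcription factors, 17 stood higher and 7 lower (median 0.068). Klf2, a flow-responsive transcription factor, averaged 10.1 ± 1.39 CPM in KO and 12.9 ± 3.93 CPM in WT (log2 change −0.33, edgeR adjusted p = 0.73). The log2 change of Klf2 was 0.054 at CT22 and −0.72 at CT10 (edgeR adjusted p = 1.0 at CT10). Its groups did not overlap at CT10, which held for 10.3% of all genes. Of 29 other endothelial identity genes, the member Ly6c1 among them, 11 stood higher and 18 lower (median −0.021). Ly6a, a relative of Ly6c1 on mouse brain endothelium, had the lowest p of these, at 19.1 ± 2.13 CPM in KO and 23.2 ± 1.67 CPM in WT (log2 change −0.28, SE 0.081, edgeR adjusted p = 0.573). Cdh5 and Tie1, both general endothelial genes, had log2 changes of 0.11 and 0.055. Of 13 arterial and venous genes, 8 stood higher and 5 lower (median 0.043), and all 4 tested genes of activated or fenestrated endothelium stood higher (median 0.20), with Plvap at 0.14 and Icam1 at 0.31. In WT at CT22 against CT10, 12 of 16 junction genes stood higher and 4 lower (median 0.22, none called). The members Cldn5, Esam and Pecam1 are among the 12, and with the members left out 9 stood higher and 4 lower (median 0.15). Of the VEGF, angiopoietin and Notch genes 12 stood higher and 8 lower (median 0.023), and of the transporters 9 stood higher and 13 lower (median −0.016). All 8 smooth muscle markers stood higher (median 0.96, none called). The smooth muscle markers summed to 199, 111 and 75.9 CPM in WT CT22, against 83.6, 86.1 and 68.2 CPM in WT CT10, and their part in the endothelial values was not tested.

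The files resolve transcripts for only some of the 10 genes. For Pecam1 they list a long form of 15 exons (3305 bases) and a short form of 14 exons (3248 bases) that lacks exon 14 of the long form, 57 bases at chromosome 11, 106671742 to 106671798 (mm10, minus strand). The short form took 25.1%, 25.7% and 26.2% of the estimated Pecam1 counts in KO CT22 and 31.4%, 54.1% and 43.0% in KO CT10, against 47.3%, 42.6% and 41.5% in WT CT22 and 45.9%, 65.4% and 19.8% in WT CT10. At CT22 all KO libraries lay below the WT libraries, while at CT10 the genotypes overlapped. How often the transcript shares of other genes separate in this way was not counted. By gene level, 13.7% of all genes did not overlap at CT22. The library labelled KO CT10 replicate 3, which Dbp placed with the CT22 libraries, had 43.0%, inside the range of WT CT22. The separation at CT22 therefore rests on the labels. The CT22 shares averaged 25.6% ± 0.577 in KO and 43.8% ± 3.1 in WT (SD, n = 3 each), and an exact two-sided permutation test of 3 against 3 cannot go below p = 0.1. Without the library labelled KO CT22 replicate 1 the KO values were 25.7% and 26.2%. The shares come from estimated counts of 22.9 to 145 for the short form, and over both labels the genotypes overlapped at 34.2% ± 11.8 in KO and 43.8% ± 14.6 in WT. Flt1 is listed with 1 transcript, so its soluble form is not separated here. For Ly6c1, with 5 listed transcripts, the main one held 73.2% to 85.5% of the counts.

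Sharing of reads with relatives touched 3 of the 10 genes. Of all stretches of 100 bases in the transcripts, 15.3% in Ly6c1 were also found in Ly6c2, 7.72% in Abcb1a in Abcb1b or Abcb4, and 1.1% in Slco1a4 in Slco1a5 or Slco1a1, and for the other 7 genes none was shared with a transcript of another gene. These 3 genes are uncertain to that extent. Their relatives were low, with Abcb1b at 2.78 to 6.57 CPM, Slco1a5 at no more than 2.61 CPM and Ly6c2 at no more than 0.227 CPM in any library.

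The 10 genes did not move as 1 block across libraries. Of their 45 pairs, 34 had a Pearson correlation above 0, with a median of 0.27 over 12 libraries. Besides Flt1 with Kdr, the highest was Cldn5 with Pecam1 at 0.71, and the lowest was Cldn5 with Slc2a1 at −0.76. The mean of the 10 genes per library, as log2 CPM relative to each gene's own mean, lay between −0.11 and 0.12 in KO and between −0.19 and 0.24 in WT. Genes most like this mean, ranked by Pearson correlation over 12 libraries among 11686 genes of at least 5 CPM, included Nr6a1 (0.92), Nos3 (0.86), Shoc2 (0.83) and Foxp1 (0.83). Among them Nos3 encodes the nitric oxide synthase of endothelium. For single members the most alike were Kctd10 for Cldn5 (0.93), Raph1 for Kdr (0.96), Bgn for Flt1 (0.93) and B4galt4 for Slc2a1 (0.95).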

How the data were processed

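The submitters' processing notes name the build mm10 and the tools RSEM 1.2.5, TopHat 1.3.3, FastQC and edgeR 3.0.6. The deposited file of a library gives, per the file headers, estimated counts that need not be whole and TPM values of 30383 transcripts. A further table that the authors deposited holds their own comparison of KO with WT: a log2 ratio, its p-value and its adjusted value. No source used here states whether strand entered the counting.

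Estimated counts were summed per gene symbol and rounded to whole numbers, and TPM values were summed per gene. Tests ran in edgeR 4.0.16 under R 4.3.3: filterByExpr by group (minimum count 10), TMM (factors 0.979 to 1.021), and a robust quasi-likelihood model of 4 group means over all 12 libraries (8 residual degrees of freedom, biological coefficient of variation 12.3%). Benjamini-Hochberg adjustment ran over all 14131 genes, with a threshold of 0.05. DESeq2 1.42.0 was an alternative. Other alternatives were other scalings, no filter, the replicate number as a block, an additive fit, and fits to the compared groups alone. Further fits left out single libraries, the library of each group richest in choroid plexus markers, or the pair of KO libraries out of place. That pair was chosen after seeing the data, by Dbp, Nr1d1, Nr1d2 and Per3. The procedure was also run on simulated counts with known changes between KO and WT. That simulation held no unequal tissue content and no libraries out of place, and its outcome is not given here. Groups and replicate numbers came from the sample titles. Counting error alone limits a gene of 82 counts more than one of 1330.

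The members and the 17 gene lists were chosen with earlier results of these data known. All members are named, with a fixed set of neighbours, the genes of lowest p in each list between KO and WT (some are not reported here), close relatives, and the genes most like the members by Pearson correlation. Sequences are from RefSeq (GRCm38.p6), whose table matched 8 of the 10 members.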

Additional observations from a re-analysis of the deposited data

Results flagged for a closer look

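A library of WT CT22, replicate 1, stood far from the other 5 WT libraries for both VEGF receptors. Flt1, the receptor that binds VEGF tightly, had 69.6 CPM there, against 38.6 to 48.7 CPM in the other WT libraries, so that its gap to the nearest library was 0.673 of the whole range (critical value 0.625 for 6 libraries). Kdr, the main signalling receptor, had 28.3 CPM there, against 12.5 to 17.3 CPM in the others (0.695 of the range). These were 2 of 20 sets of 6 libraries examined, and chance gives about 1 in 20 for independent sets. The sets of Flt1 and Kdr were not independent, since both flags fell on the same library and the genes correlated at 0.93. Each set also pooled both CT labels. The same library had the highest sum of meningeal fibroblast markers (681 CPM) and of smooth muscle markers (199 CPM) among the WT libraries, and their part in these values was not tested.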

How the results depend on the processing

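Members were called under 3 alternatives only, each time Cldn5 in CT22 against CT10 in WT: DESeq2 called 1 member, edgeR on the compared groups alone called 1, and edgeR without the 2 KO libraries out of place called 1. The count of members called was 0 in every comparison under all other alternatives run, including each library left out in turn, where it ranged from 0 to 0. Counts of all genes called in edgeR were 3 (KO against WT averaged), 1 (at CT10), 2 (at CT22) and 0 in the other comparisons. DESeq2 gave 22, 3 and 31, and 4 for CT22 against CT10 in WT, and the fit without a filter gave 10, 1 and 3. Leaving out 1 library gave 1 to 8 (averaged), 1 to 4 (at CT22) and 0 to 1 (CT22 against CT10 in WT). To see whether same-numbered libraries of different groups deviate together, each gene's log2 CPM was taken relative to its group mean. These deviations correlated over genes at −0.268 to 0.333. Libraries of different numbers were not set beside them, so these values cannot decide whether the numbers pair libraries. The replicate block gave 1, 1 and 1 gene, left Cldn5 in WT at a log2 change of 1.00 (edgeR adjusted p = 0.713) and put Tek averaged at 0.0056. Directions turned only for log2 changes near 0 or resting on a few libraries, and the cause was not tested. Library totals alone put Tek averaged at 9.3e-05. Without the libraries richest in choroid plexus markers, KO against WT averaged was −0.058 for Abcb1a, −0.015 for Cldn5 and −0.15 for Slco1a4. At CT10 it was −0.0019 for Abcb1a, −0.16 for Slco1a4 and −0.13 for Tek, and at CT22 −0.11 for Abcb1a, −0.16 for Flt1 and −0.035 for Kdr. The difference of the KO effects was 0.019 for Slco1a4. CT22 against CT10 was −0.16 for Cldn5, 0.00027 for Ly6c1 and 0.10 for Slco1a4 in KO, and 0.11 for Abcb1a in WT. Without the 2 KO libraries out of place, KO against WT averaged was −0.0025 for Cldn5 and 0.00069 for Esam, at CT10 0.034 for Ly6c1 and −0.018 for Pecam1, and at CT22 −0.013 for Abcb1a. The difference of the KO effects was then 0.024 for Kdr and −0.022 for Slc2a1, and CT22 against CT10 in KO was 0.066 for Pecam1. With each library left out in turn, KO against WT averaged crossed 0 for Tek (−0.078 to 0.091), Cldn5 (−0.094 to 0.13), Slco1a4 (−0.089 to 0.094) and Abcb1a (−0.0041 to 0.11). At CT10 it did so for Ly6c1 (−0.065 to 0.054), Tek (−0.066 to 0.27), Slco1a4 (−0.12 to 0.24) and Pecam1 (−0.016 to 0.17), and at CT22 for Slco1a4 (−0.16 to 0.044), Tek (−0.19 to 0.0069), Abcb1a (−0.10 to 0.14) and Flt1 (−0.073 to 0.30). The difference of the KO effects crossed 0 for Abcb1a (−0.18 to 0.048), Slco1a4 (−0.29 to 0.060), Flt1 (−0.35 to 0.016) and Kdr (−0.37 to 0.22). CT22 against CT10 did so in KO for Abcb1a (−0.14 to 0.010), Slco1a4 (−0.25 to 0.10), Tek (−0.040 to 0.10), Pecam1 (−0.14 to 0.042) and Cldn5 (−0.026 to 0.42), and in WT for Abcb1a (−0.12 to 0.12) and Slco1a4 (−0.037 to 0.11). With 82 to 1330 counts per library and 3 libraries a group, small changes of the lower genes could not be resolved.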

Other observations

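The cells around the endothelium were read in the same way, from marker lists and for KO against WT averaged over CT labels, and no marker was called by edgeR. Of 12 pericyte markers, 9 stood higher in KO and 3 lower (median log2 change 0.16), with summed levels of 228 to 278 CPM in KO and 197 to 278 CPM in WT. Pdgfrb, the growth factor receptor that defines pericytes, had a log2 change of 0.07. All 8 smooth muscle markers stood higher (median 0.55), with sums of 81.8 to 256 CPM in KO and 68.2 to 199 CPM in WT. Of 12 astrocyte endfoot markers, 5 stood higher and 7 lower (median −0.012). Mlc1, a membrane protein of endfeet, had the lowest p of that list, at a log2 change of −0.20 (SE 0.053, edgeR adjusted p = 0.485). Of 9 microglia and perivascular macrophage markers, 3 stood higher and 6 lower (median −0.074).

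Genes of blood and of the interferon response, which vessels can carry or show, stood mostly higher in KO, also without a call. Of 5 blood genes, 4 stood higher and 1 lower, with fitted log2 changes of single genes from −4.2 to 5.01. The globin gene Hbb-b1 had 16.3 to 52.7 CPM in KO against 3.84 to 31.4 CPM in WT. Summed over the list, blood genes overlapped between genotypes, at 170 to 265 CPM in KO CT22 against 118 to 224 CPM in WT CT22. At CT10 the sums were 151 to 496 CPM in KO and 169 to 234 CPM in WT. Sharing of reads among globin genes was not examined, so the values of single globin genes are uncertain. Of 11 interferon response genes, 10 stood higher and 1 lower (median 0.37). They summed to 104, 107 and 102 CPM in KO CT22 and 158, 108 and 97.9 CPM in KO CT10, against 92.6 to 103 CPM in WT. The library at 158 CPM, KO CT10 replicate 1, also held 3710 CPM of choroid plexus markers, whose part was not tested. All 16 choroid plexus markers stood higher in KO (median 1.29), but their sums lay far apart within each group. They were 117, 558 and 3950 CPM in KO CT22 and 3710, 198 and 389 CPM in KO CT10. In WT they were 201, 333 and 1640 CPM at CT22 and 143, 248 and 1670 CPM at CT10. Of 9 neuron markers, 5 stood higher and 4 lower (median 0.017), and of 13 core clock genes 8 stood higher and 5 lower (median 0.0075).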
